A study of Mus musculus with 2 samples.

Results

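Salt-inducible kinases, class IIa histone deacetylases, the CRTC coactivators and the transcription factor MEF2C form the arm of parathyroid hormone signalling described here, through the 9 genes Sik1, Sik2, Sik3, Hdac4, Hdac5, Crtc1, Crtc2, Crtc3 and Mef2c. They were taken by symbol from the 27998 genes counted in the deposited matrices. The rule itself uses no measured value, but the genes were chosen with earlier results of these data known. Single cells came from the femoral metaphysis of Gli1-CreERT2; Ai9 mice of mixed background at 1 month of age, in which tamoxifen turns on tdTomato in cells with an active Gli1 promoter and in what descends from them. All mice received tamoxifen once a day for 3 days. The vehicle group then received vehicle and the teriparatide group received teriparatide, the active fragment of parathyroid hormone, at 400 ng per g of body weight by intraperitoneal injection, once a day for 3 days in both. The methods of the study give both groups the same numbers of male and of female mice. The mice were sacrificed on the day after the last injection. The epiphysis was removed, and the bone was crushed and digested with collagenase. From it, tdTomato+CD31-CD45-Ter119- cells were sorted and made into 1 droplet library per condition. The sources used here do not say how the cells of the mice were combined.

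In bone, parathyroid hormone binds its receptor PTH1R, whose G protein raises cAMP and activates protein kinase A. Protein kinase A inhibits the salt-inducible kinases, which otherwise phosphorylate class IIa HDACs and CRTCs and so hold them in the cytoplasm. Class IIa HDACs that reach the nucleus repress MEF2 factors, while CRTCs assist CREB, and MEF2C is known as an activator of Sost in osteocytes and of Col10a1 in hypertrophic cartilage. Much of this regulation acts on the proteins, so that the counts below describe the RNA of the genes and not the activity of the pathway.

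Each captured mRNA carries a unique molecular identifier (UMI). The vehicle library held 1286 barcodes and 10567335 UMIs and the teriparatide library 2142 barcodes and 26270041 UMIs, with 2 barcode sequences in common. After filters on detected genes and mitochondrial UMIs, 549 and 1217 cells remained, with a median of 10875 and 14556 UMIs. Cells were sorted into classes by marker genes. Chondrocyte-like osteoprogenitors (COP-like: Sox9, Sox5, Sox6, Col2a1, Acan) numbered 64 with vehicle and 258 with teriparatide, osteoblast-like cells (OB-like) 111 and 117, and marrow adipogenic lineage precursors (MALP-like) 178 and 93. Hypertrophic-like chondrocytes numbered 7 and 26, preosteoblast-like cells (preOB-like) 24 and 34, and osteocyte-like cells 16 and 36. Despite the sort, erythroid-like (43 and 155), granulocyte-like (22 and 208), monocyte-like (17 and 125) and B-cell-like (11 and 37) cells were present. All markers of the COP-like, OB-like and MALP-like classes were detected in the cells given that name. The same markers set the classes, so this is no separate check of the names. By Y-linked genes and Xist, males made up 52.6% of the mesenchymal cells with a sex call in the vehicle library and 90.2% in the teriparatide library, so male and female cells are also given apart.

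Levels are UMIs of a gene summed over a class and scaled to all UMIs of that class (CPM), with exact 95% Poisson intervals in parentheses. Ratios are teriparatide to vehicle on the log2 scale, with conditional binomial 95% intervals. Both kinds of interval cover counting error between molecules and not the spread between cells or between mice. They are therefore too narrow where a few cells hold much of the UMIs of a gene. With 1 library per condition the differences have no replicate check and were not tested. A gene was compared in a class where the 2 libraries together held at least 50 UMIs, and a ratio past 1.5-fold is counted as past the fold. To show how far free RNA reaches, shares of cells with a UMI are set beside those of erythroid-like cells (median depth 10001 and 10463 UMIs), which are shallower than COP-like cells (29101.5 and 30713 UMIs) and close to MALP-like cells (10960 and 13540 UMIs).

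**Figure D1:**
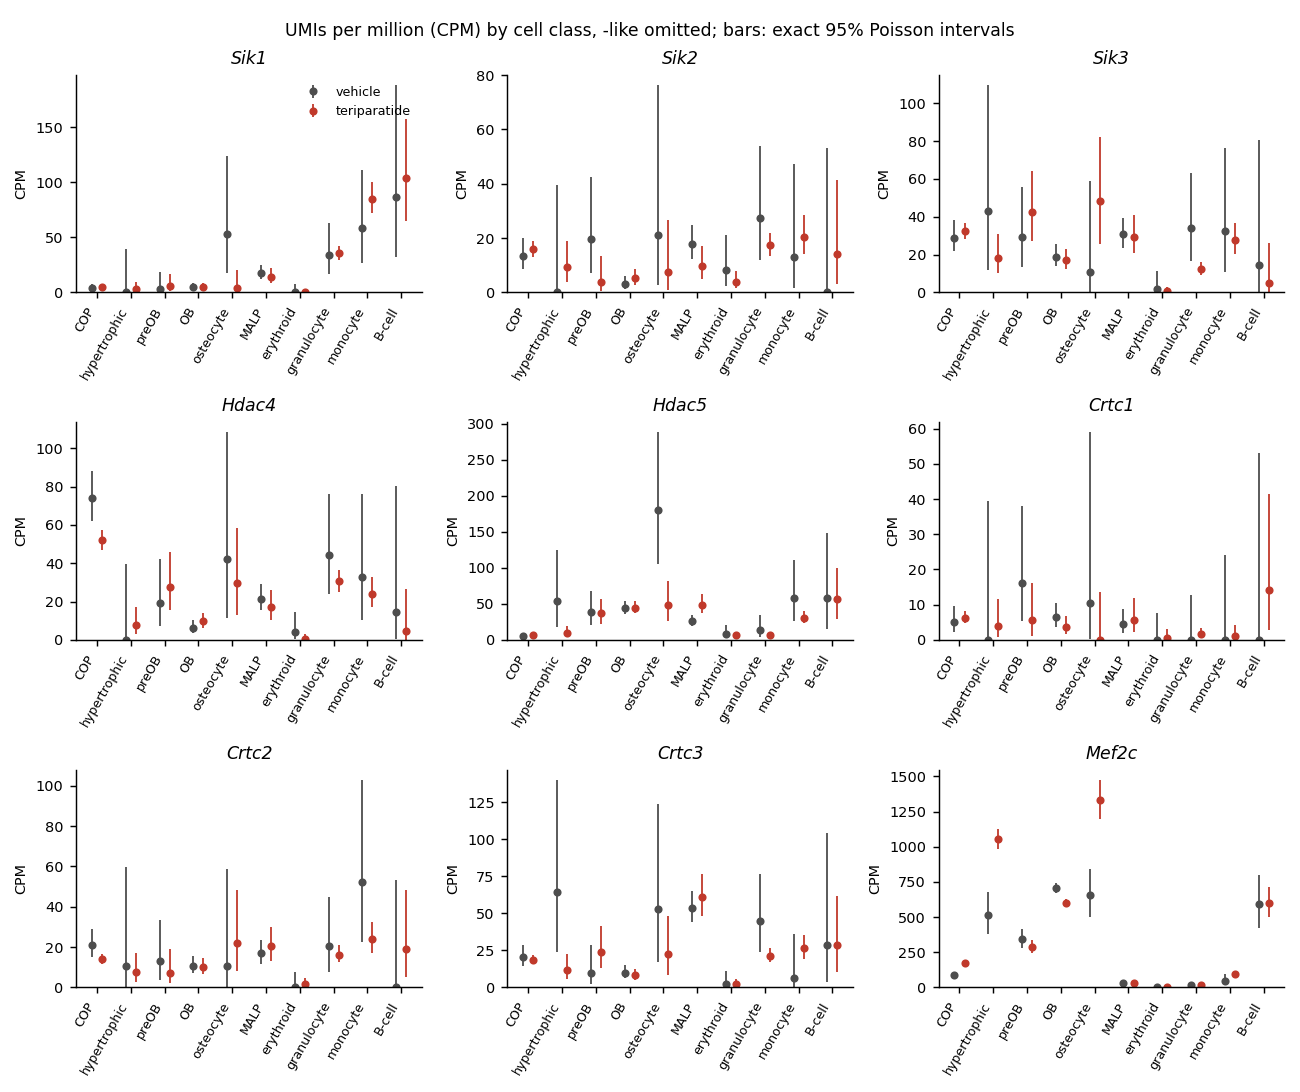
Level of each of the 9 genes as CPM (y axis, linear) in 10 cell classes (x axis), with grey points for the vehicle and red points for the teriparatide library and bars for exact 95% Poisson intervals. Mef2c stood highest in osteocyte-like, hypertrophic-like, OB-like and B-cell-like cells and Hdac4 in COP-like cells. Crtc3 stood highest in MALP-like cells, apart from vehicle hypertrophic-like cells (64.3 CPM from 6 UMIs). Wide bars mark classes with few UMIs.

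The kinases came first in the order of the pathway. Over whole classes they showed no ratio past the fold in COP-like, OB-like or MALP-like cells where the minimum was met. Sik1, the member of the family that is itself induced by cAMP in many tissues (ENSMUSG00000024042, chromosome 17 between 31844250 and 31855804 on GRCm38, the build of all positions here), had 3.91 CPM (1.57 to 8.05) with vehicle and 4.77 CPM (3.36 to 6.57) in the teriparatide COP-like cells. It had 4.72 and 5.18 CPM in OB-like cells and 17.9 and 13.9 CPM in MALP-like cells. Only the last of these classes reached the minimum, with a log2 ratio of -0.36 (-1.29 to 0.51). Monocyte-like cells held 58.7 CPM (26.9 to 112) and 85.1 CPM (71.8 to 100.1), granulocyte-like cells 34.3 and 35.4 CPM, and B-cell-like cells 86.5 and 104 CPM. No Sik1 UMI was found in the 43 and 155 erythroid-like cells. Thus in the teriparatide library the intervals of monocyte-like and granulocyte-like cells, each class taken whole, lay above those of every mesenchymal class. Among the granulocyte-like cells of that library, a cluster led by Ltf held 51.6 CPM (42.1 to 62.7). Another, led by Elane, held 15.1 CPM (9.96 to 22.0), which overlapped the MALP-like interval (8.09 to 22.2). In the vehicle library the intervals of osteocyte-like (52.9 CPM, from 5 UMIs), MALP-like, preOB-like and hypertrophic-like cells overlapped that of granulocyte-like cells.

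Sik2, a kinase best known from adipocytes and from osteocytes under parathyroid hormone (ENSMUSG00000037112, chromosome 9 between 50892801 and 51009073), had 13.4 CPM (8.58 to 19.9) with vehicle and 15.9 CPM (13.2 to 18.9) in the teriparatide COP-like cells, a log2 ratio of 0.24 (-0.40 to 0.94). OB-like cells held 3.00 and 5.18 CPM from 7 and 14 UMIs. MALP-like cells held 17.9 and 9.80 CPM from 35 and 12 UMIs, under the minimum for a comparison. Erythroid-like cells held 8.20 CPM (2.23 to 21.0) with vehicle and 3.86 CPM (1.55 to 7.96) with teriparatide. The OB-like and MALP-like intervals of both libraries and the vehicle COP-like interval overlapped these, so that Sik2 could not be told from background there. Sik2 was spread unevenly within the COP-like class, as is described further on.

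Sik3, whose loss is known to hold back chondrocyte hypertrophy in mice (ENSMUSG00000034135, chromosome 9 between 46012820 and 46224194), was close between the libraries in all 3 large mesenchymal classes. COP-like cells had 29.0 CPM (21.7 to 38.0) with vehicle and 32.4 CPM (28.5 to 36.6) with teriparatide, a log2 ratio of 0.16 (-0.28 to 0.62). In OB-like cells the levels were 18.9 and 17.0 CPM (log2 ratio -0.15, -0.78 to 0.48), and in MALP-like cells 30.6 and 29.4 CPM (-0.06, -0.70 to 0.56). The intervals leave room for a change of about the fold used here in all 3 classes. Among male OB-like cells the ratio was 0.78 on 7 and 40 UMIs, while female OB-like cells held 34 UMIs with vehicle and 0 with teriparatide, where 6 such cells were present.

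Upstream sequence was read from RefSeq windows on GRCm38.p6 for 7 of the 9 genes, over the 250 bases before the annotated start. The windows were searched on both strands for the CREB half-site TGACG, for its octamer TGACGTCA, which contains the half-site, and for the MEF2 consensus. The half-site was found for Sik3 and Hdac4 and lies in 17.8% of all RefSeq windows, the octamer for none of the 7 genes (1.55% of all windows), and the MEF2 consensus for Hdac5 alone (2.92% of all windows). The 3 windows with a match are shown because CREB and MEF2C are the factors that CRTCs and class IIa HDACs act on, and the capitals mark the half-sites in Sik3 and Hdac4 and the MEF2 consensus in Hdac5. A match of letters is a description and not a bound site.
Sik3, chr9:46012570-46012819, plus strand: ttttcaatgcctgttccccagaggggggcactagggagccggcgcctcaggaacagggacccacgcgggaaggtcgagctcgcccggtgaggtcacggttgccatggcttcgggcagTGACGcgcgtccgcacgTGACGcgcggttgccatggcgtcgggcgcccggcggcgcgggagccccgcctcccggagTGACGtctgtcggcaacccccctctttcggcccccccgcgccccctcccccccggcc
Hdac4, chr1:92180342-92180591, minus strand: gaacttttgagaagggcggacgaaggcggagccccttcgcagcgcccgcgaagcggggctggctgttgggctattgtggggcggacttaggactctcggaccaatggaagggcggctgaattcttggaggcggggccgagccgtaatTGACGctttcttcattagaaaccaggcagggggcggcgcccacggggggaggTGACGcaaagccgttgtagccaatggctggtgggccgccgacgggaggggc
Hdac5, chr11:102230173-102230422, minus strand: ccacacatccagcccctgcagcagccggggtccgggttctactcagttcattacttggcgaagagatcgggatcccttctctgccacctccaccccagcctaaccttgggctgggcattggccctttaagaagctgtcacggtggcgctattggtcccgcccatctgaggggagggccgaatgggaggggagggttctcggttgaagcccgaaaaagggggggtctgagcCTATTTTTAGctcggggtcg
The Sik3 half-sites began 57, 116 and 133 bases before the start and those of Hdac4 51 and 103 bases before it, and the Hdac5 match began 20 bases before it. The Hdac4 window lies inside the longer gene of the GENCODE annotation.

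Hdac4, the class IIa deacetylase known to restrain MEF2C in growth plate chondrocytes (ENSMUSG00000026313, chromosome 1 between 91928779 and 92195699), was highest in COP-like cells of both libraries. The COP-like level was 74.2 CPM (62.1 to 87.9) with vehicle and 52.1 CPM (47.1 to 57.4) with teriparatide. It was 6.44 CPM (3.60 to 10.6) and 9.62 CPM (6.28 to 14.1) in OB-like cells, and 21.4 and 17.2 CPM in MALP-like cells. COP-like cells thus stood 11.5-fold and 5.41-fold above OB-like cells and 3.46-fold and 3.03-fold above MALP-like cells. In the vehicle library the COP-like interval overlapped that of the next class, granulocyte-like at 44.6 CPM (23.7 to 76.2). It also overlapped the vehicle intervals of osteocyte-like (11.5 to 108, from 4 UMIs), monocyte-like (10.6 to 76.1) and B-cell-like cells (0.365 to 80.3). In the teriparatide library it did not overlap that of granulocyte-like cells, with 30.5 CPM (25.3 to 36.6). It did overlap that of osteocyte-like cells, with 29.6 CPM (12.8 to 58.4) from 8 UMIs. Hypertrophic-like cells of the vehicle library held 0 UMIs of Hdac4 and those of the teriparatide library 6 (7.89 CPM, 2.89 to 17.2), which is 6.60-fold below the COP-like cells of that library. A UMI of Hdac4 was found in 68.8% and 61.2% of COP-like cells, against 4.65% and 0.645% of erythroid-like cells. Once each cell was thinned to 4100 UMIs, the shares were 25.4% and 20.2% of COP-like cells, against 0% of 32 and 0% of 121 erythroid-like cells.

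Between the libraries the COP-like level of Hdac4 was lower with teriparatide, with a log2 ratio of -0.51 (-0.80 to -0.22) that did not reach the fold. The median over all 9130 genes compared in this class was itself -0.20. Male COP-like cells gave -0.64 (-0.94 to -0.33), from 81.6 to 52.5 CPM, and female cells gave 0.56 (-0.55 to 1.87) on 8 and 40 UMIs. In OB-like cells the ratio of 0.58 rested on 15 and 26 UMIs.

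Hdac5, the other class IIa deacetylase of the set and a known repressor of MEF2C on Sost (ENSMUSG00000008855, chromosome 11 between 102194432 and 102230166), was higher in OB-like than in COP-like cells. For this pair of classes that is the reverse of Hdac4. OB-like cells held 44.2 CPM (36.1 to 53.6) with vehicle and 44.8 CPM (37.1 to 53.5) with teriparatide, and COP-like cells 5.58 CPM (2.68 to 10.3) and 7.35 CPM (5.56 to 9.52). COP-like cells were therefore 7.93-fold and 6.09-fold below OB-like cells. Osteocyte-like cells held 180 CPM (105 to 288) and 48.2 CPM (25.6 to 82.4), on 17 and 13 UMIs. The COP-like intervals overlapped those of erythroid-like cells (8.20 and 6.62 CPM), so that Hdac5 could not be told from background there.

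Of the COP-like, OB-like and MALP-like classes, each taken whole, only the MALP-like cells gave a ratio of Hdac5 past the fold. The level was 26.5 CPM (19.8 to 34.8) with vehicle and 49.0 CPM (37.4 to 63.1) with teriparatide, a log2 ratio of 0.89 (0.33 to 1.45). A UMI was found in 23.6% (17.6 to 30.5) and 43.0% (32.8 to 53.7) of these cells, and in 10.6% and 18.2% after thinning. Male cells went from 19.1 to 46.7 CPM (log2 1.29, 0.46 to 2.18) and female cells from 37.3 to 82.3 CPM (1.14, -0.28 to 2.34), the latter on 33 and 7 UMIs. The summed granulocyte markers in the MALP-like cells were 47.5 and 146 CPM, with 7 and 6 of 7 detected, and granulocyte-like cells held 13.7 and 7.24 CPM of Hdac5. In the same cells the preOB markers summed to 188 and 287 CPM, the COP markers to 28.1 and 107 CPM and the MALP markers to 30514 and 25618 CPM, and preOB-like cells held 39.0 and 37.1 CPM of Hdac5. The part of these lists in the Hdac5 ratio was not tested. In OB-like cells the ratio was 0.02 (-0.37 to 0.41).

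Of the coactivators, Crtc1 and Crtc2 did not exceed 21.2 CPM in the 3 large mesenchymal classes, and Crtc3 was higher in MALP-like cells. Crtc1 (ENSMUSG00000003575, chromosome 8 between 70382355 and 70439579), the family member studied mostly in neurons, had 5.02 CPM (2.30 to 9.53) with vehicle and 6.31 CPM (4.67 to 8.35) in the teriparatide COP-like cells, and 6.44 and 3.70 CPM in OB-like cells. It reached the minimum in COP-like cells alone, where the ratio was 0.33 (-0.71 to 1.54). In osteocyte-like, erythroid-like, granulocyte-like and monocyte-like cells it had between 0 and 6 UMIs in either library.

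Crtc2, the coactivator that carries CREB signals in liver (ENSMUSG00000027936, chromosome 3 between 90254163 and 90264125), had 21.2 CPM with vehicle and 13.9 CPM in the teriparatide COP-like cells. Its log2 ratio of -0.61 (-1.15 to -0.03) was just past the fold. The call was lost when the median of all genes was set to 0 (-0.40), when the class gate was raised (-0.56), without the cell with most UMIs in each library (-0.55) and at 4100 UMIs per cell (-0.34). In OB-like cells the levels were 10.7 and 9.99 CPM and in MALP-like cells 16.8 and 20.4 CPM.

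Crtc3 (ENSMUSG00000030527, chromosome 7 between 80586627 and 80688877) restrains cAMP signalling in fat. It was highest in MALP-like cells of both libraries among classes with at least 15 cells in each. The level there was 53.6 CPM (43.8 to 64.9) with vehicle and 61.3 CPM (48.2 to 76.8) with teriparatide, with a log2 ratio of 0.19 (-0.25 to 0.63). OB-like cells were 5.43-fold and 7.53-fold lower, at 9.87 and 8.14 CPM, and COP-like cells 2.60-fold and 3.28-fold lower, at 20.6 and 18.7 CPM. In the teriparatide library the osteocyte-like interval (8.16 to 48.4, from 6 UMIs) just reached the MALP-like one. In the vehicle library the MALP-like interval overlapped those of osteocyte-like (52.9 CPM, from 5 UMIs) and granulocyte-like cells (44.6 CPM, 23.7 to 76.2). The 7 hypertrophic-like cells of that library held 64.3 CPM (23.6 to 140) from 6 UMIs. After thinning, 29.8% and 28.4% of MALP-like cells held a UMI of Crtc3, against 3.12% and 0.826% of erythroid-like cells.

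Mef2c, the transcription factor at the end of this arm (ENSMUSG00000005583, chromosome 13 between 83504034 and 83667080), was high in the bone-forming and hypertrophic classes and low in COP-like and MALP-like cells. OB-like cells held 706 CPM (672 to 741) with vehicle and 599 CPM (570.2 to 629) with teriparatide, and preOB-like cells 342 CPM (279 to 413) and 289 CPM (245 to 338). Osteocyte-like cells held 655 CPM (503 to 840.2) and 1330.1 CPM (1196 to 1475). Hypertrophic-like cells held 514 CPM (379 to 682) from 7 cells and 1054 CPM (983 to 1129.8) from 26 cells. COP-like cells stood below these classes with 87.0 CPM (73.9 to 102) and 177 CPM (168 to 187), and MALP-like cells lower still with 29.6 CPM (22.5 to 38.3) and 30.2 CPM (21.3 to 41.7). Outside the mesenchyme, B-cell-like cells held 591 and 601 CPM, monocyte-like cells 45.7 and 95.1 CPM, and granulocyte-like cells 17.1 and 14.2 CPM.

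The order of the classes, among those with at least 15 cells in each library, fell from osteocyte-like to OB-like, preOB-like, COP-like, monocyte-like, MALP-like, granulocyte-like and erythroid-like cells in the teriparatide library, and no interval overlapped the next. In the vehicle library the OB-like and osteocyte-like intervals overlapped, as did those of each class with the next from COP-like through monocyte-like, MALP-like and granulocyte-like to erythroid-like cells. A UMI of Mef2c was found in 91.9% and 86.3% of OB-like cells and in 23.0% and 26.9% of MALP-like cells. It was found in 0 of 43 erythroid-like cells of the vehicle library, which allows a share of up to 6.98% by a count of 3 cells and 8.22% by the exact 95% limit, and in 1.29% of those of the teriparatide library.

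Differences between the large mesenchymal classes were counted where a gene was past 2-fold in the same direction in both libraries. COP-like against OB-like cells, 4 of the 6 genes compared were, with Hdac4 and Crtc3 higher and Hdac5 and Mef2c lower, where 24.9% of all genes compared were. COP-like against MALP-like cells, 4 of 7 were, with Hdac4 and Mef2c higher and Hdac5 and Crtc3 lower, against 28.0% of all genes. OB-like against MALP-like cells, 2 of 5 were, with Mef2c 23.9-fold and 19.8-fold higher and Crtc3 lower, against 37.1% of all genes. In the teriparatide library, hypertrophic-like cells differed from COP-like cells past 2-fold for 2 of 8, with Mef2c 5.95-fold higher and Hdac4 lower, against 28.3% of all genes. Hdac4 and Hdac5 thus lay on opposite sides between COP-like and OB-like cells.

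Teriparatide and vehicle libraries differed for few of these genes. In COP-like cells 2 of 8 genes were past the fold, Mef2c higher and Crtc2 lower, where 25.1% of the 9130 genes compared were. In OB-like cells 0 of 4 were, against 19.4% of 6465 genes, and in MALP-like cells 1 of 7 was, Hdac5, against 17.2% of 7308 genes. The single gene compared in each of the small classes was Mef2c, which was not past the fold in preOB-like cells (29.8% of all genes were) and was higher in osteocyte-like cells (35.3% of all genes were). In the 3 large classes these shares are near the background or under it, and no result about the 9 genes together is read from them.

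**Figure D2:**
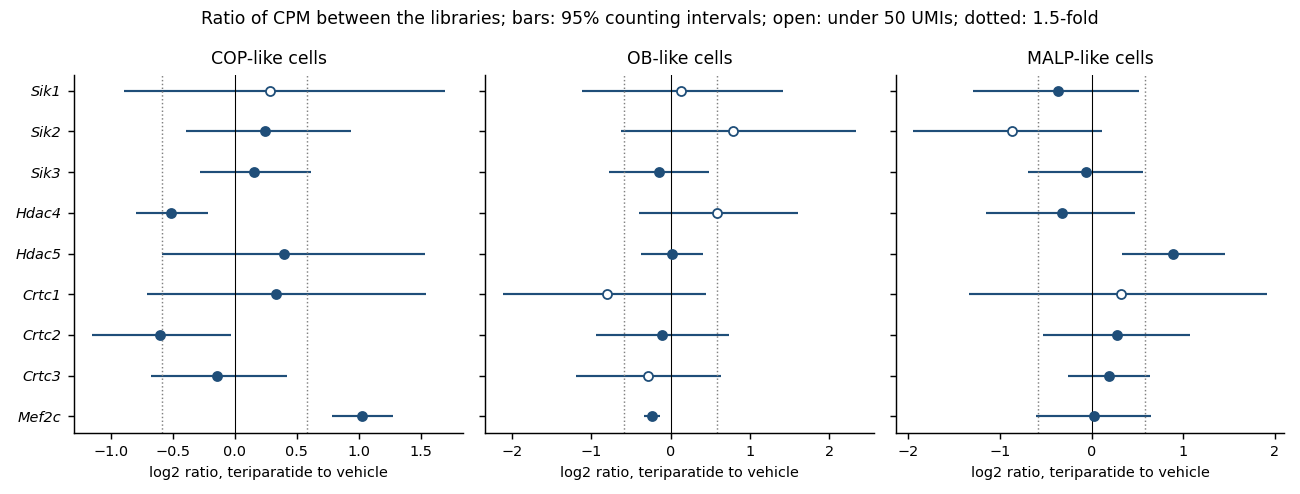
Log2 ratio of CPM, teriparatide to vehicle (x axis), of the 9 genes (y axis) in COP-like, OB-like and MALP-like cells, with bars for 95% counting intervals, open points for genes under 50 UMIs and dotted lines at 1.5-fold. Mef2c in COP-like cells at 1.03 and Hdac5 in MALP-like cells at 0.89 lie past the lines with intervals above 0, and Crtc2 in COP-like cells at -0.61 lies at the line.

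In the other classes, 3 of 7 genes were past the fold in granulocyte-like cells, Sik2, Sik3 and Crtc3, and all were lower with teriparatide, where 34.6% of all genes were past the fold. The vehicle class held 22 cells, and Sik3 had 34.3 CPM (16.4 to 63.0) there and 12.2 CPM (8.93 to 16.2) in the 208 teriparatide cells. The Sik2 interval included 0 (log2 -0.66, -1.72 to 0.61), and male granulocyte-like cells gave 1.24 on 1 and 41 UMIs. In monocyte-like cells 2 of 4 were past the fold, Mef2c higher and Hdac5 lower, against 33.0% of all genes, and both intervals included 0. These are cells the sort was meant to remove.

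The Mef2c ratio in COP-like cells was 1.03 (0.79 to 1.28), from 156 UMIs with vehicle and 1376 UMIs with teriparatide. The UMIs were unevenly spread. In the vehicle library 5 of 64 cells held 47.4% of them, and in the teriparatide library 5 of 258 cells held 24.9%. The share of cells with a UMI was 56.2% (43.3 to 68.6) and 60.5% (54.2 to 66.5), which differ by less than counting error. Without the cell with most UMIs in each library the ratio was 1.25, and at 4100 UMIs per cell it was 0.64.

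COP-like cells formed 2 clusters in a clustering that left out the 9 genes, the markers and the pathway genes. One, with Ppa1, Chad and Col9a3 among its leading genes, held 39 vehicle and 157 teriparatide COP-like cells, and the other, led by Meg3, Ucma and Cytl1, held 25 and 101, so the first made up 60.9% of the class in each library. In the Chad cluster Mef2c had 115 CPM (97.0 to 136) with vehicle and 257 CPM (243 to 271) with teriparatide, a log2 ratio of 1.15 (0.90 to 1.42). In the Ucma cluster it had 30.2 CPM (17.9 to 47.7) and 23.8 CPM (18.3 to 30.5), a log2 ratio of -0.34 (-1.11 to 0.50). Higher Mef2c in the teriparatide library was thus found in the Chad cluster and not seen in the Ucma cluster.

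Hdac4 lay the other way round within the class. The Ucma cluster held 134 CPM (106 to 167) with vehicle and 79.1 CPM (68.7 to 90.6) with teriparatide, a log2 ratio of -0.76 (-1.14 to -0.37), and the Chad cluster 44.3 CPM (33.2 to 58.0) and 38.1 CPM (32.9 to 43.8), a log2 ratio of -0.22 (-0.66 to 0.25). Sik2 also stood higher in the Ucma cluster, with 35.2 CPM (21.8 to 53.8) and 26.1 CPM (20.3 to 33.1) against 2.51 CPM (0.517 to 7.33) and 10.6 CPM (7.93 to 13.8) in the Chad cluster. Its log2 ratio was 2.07 (0.45 to 4.39) in the Chad cluster, past the fold on 3 and 54 UMIs. The vehicle level there could not be told from background, since its interval overlapped that of erythroid-like cells (8.20 CPM, 2.23 to 21.0). The teriparatide interval just reached that of erythroid-like cells (3.86 CPM, 1.55 to 7.96). In the Ucma cluster the Sik2 ratio was -0.43 (-1.15 to 0.35). The clusters were drawn from these same cells, so these levels and ratios are a description.

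Markers of hypertrophic chondrocytes also differed between the COP-like cells of the libraries. The 3 markers Col10a1, Ihh and Panx3 summed to 105 CPM in the vehicle and 257 CPM in the teriparatide COP-like cells. All 3 were detected in both, Ihh by 1 UMI in the vehicle library. The sum hides unlike changes. Ihh had 1 and 333 UMIs, a log2 ratio of 6.27 (3.78 to 11.6), and 75.4% of the latter lay in 5 cells. Col10a1 had 3 and 375 UMIs (4.85, 3.29 to 7.14) and Panx3 184 and 1283 UMIs (0.69, 0.46 to 0.92). At least 1 UMI of them was held by 28 of 64 vehicle cells (43.8%) and 138 of 258 teriparatide cells (53.5%), in most cases of Panx3. These cells held 131 of the 156 Mef2c UMIs of the vehicle and 1273 of the 1376 of the teriparatide library, a level of 146 CPM (122 to 173) and 269 CPM (254 to 284). The remaining cells held 28.0 CPM (18.1 to 41.3) and 34.1 CPM (27.8 to 41.3), a log2 ratio of 0.29 (-0.36 to 0.98). Without the cells that held such a UMI Mef2c was not past the fold, and with cells lacking a UMI of Col10a1 alone it was 0.92 (0.66 to 1.19). Within the Chad cluster, by contrast, cells without any of the 3 markers had 21.1 CPM and 50.9 CPM of Mef2c, on 7 and 55 UMIs, a log2 ratio of 1.27 (0.13 to 2.65) past the fold. In male cells with a marker UMI the log2 ratio of Col10a1 was 2.91 (1.02 to 5.98), from 2 and 86 UMIs. There Ihh gave 5.79 (3.30 to 11.1), from 1 and 315 UMIs, Panx3 0.41 (0.17 to 0.67) and Mef2c 1.12 (0.81 to 1.43). Female cells with a marker UMI were 4 and 14 in number. In them Col10a1 had a log2 ratio of 6.09 (3.60 to 11.4), from 1 and 286 UMIs, and Ihh had 0 and 17 UMIs. Panx3 had a ratio of 0.68 (-0.02 to 1.46) there and Mef2c one of -0.16 (-0.83 to 0.55). The split uses markers that themselves differed between the libraries, and Col10a1 is a known MEF2C target, so it is a description of where the UMIs lay. Cells with a marker UMI were also deeper, with medians of 32929 and 34962.5 UMIs against 24719.5 and 25693 UMIs, and the part of depth was not tested.

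**Figure D3:**
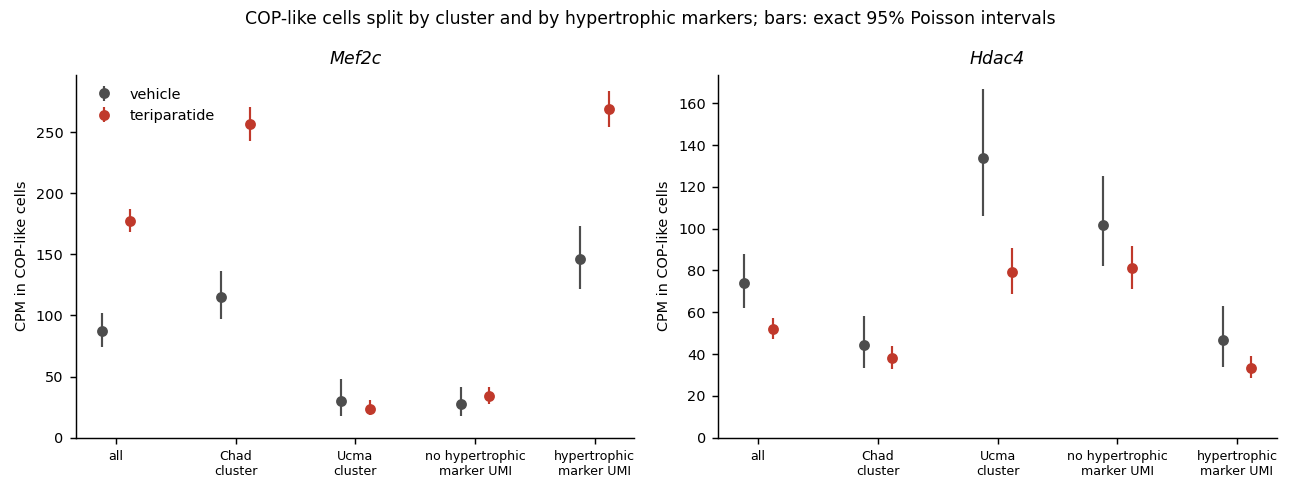
CPM of Mef2c and Hdac4 (y axes) in COP-like cells, all together, in the Chad and Ucma clusters, and in cells without and with a UMI of Col10a1, Ihh or Panx3 (x axis), with grey points for the vehicle, red points for the teriparatide library and bars for exact 95% Poisson intervals. Mef2c differed between the libraries in the Chad cluster (115 and 257 CPM) and in cells with a marker UMI (146 and 269 CPM), and lay near 30 CPM in both libraries in the Ucma cluster and in cells without a marker UMI. Hdac4 was higher in the Ucma than in the Chad cluster and higher in cells without than with a marker UMI.

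Other lists differed between the COP-like cells of the libraries as well. The 5 OB markers summed to 236 CPM (4 detected) and 536 CPM (5 detected) and the 7 granulocyte markers to 7.25 CPM (4 detected) and 79.6 CPM (7 detected), while the monocyte markers stood at 0.558 and 0 CPM. OB-like cells hold high Mef2c, and the part of these lists in the Mef2c ratio was not tested.

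Male and female cells gave Mef2c ratios that differed in size or sign, a difference that was not tested. Male COP-like cells had 78.2 CPM in the vehicle and 186 CPM in the teriparatide library (log2 1.25, 0.97 to 1.53), and female COP-like cells 107 and 123 CPM (0.20, -0.42 to 0.86), from 9 and 25 cells. In OB-like cells the ratio over all cells was -0.24 (-0.34 to -0.14), under the fold. Male OB-like cells went from 782 to 567 CPM (-0.46, -0.61 to -0.32) and female OB-like cells from 705 to 1226 CPM (0.80, 0.58 to 1.01), the last value from 6 cells. Setting the median of all OB-like genes to 0 brought the ratio over all cells to -0.11. In MALP-like cells the ratio was 0.03 (-0.61 to 0.65), where males gave 0.51 and females 0.10.

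**Figure D4:**
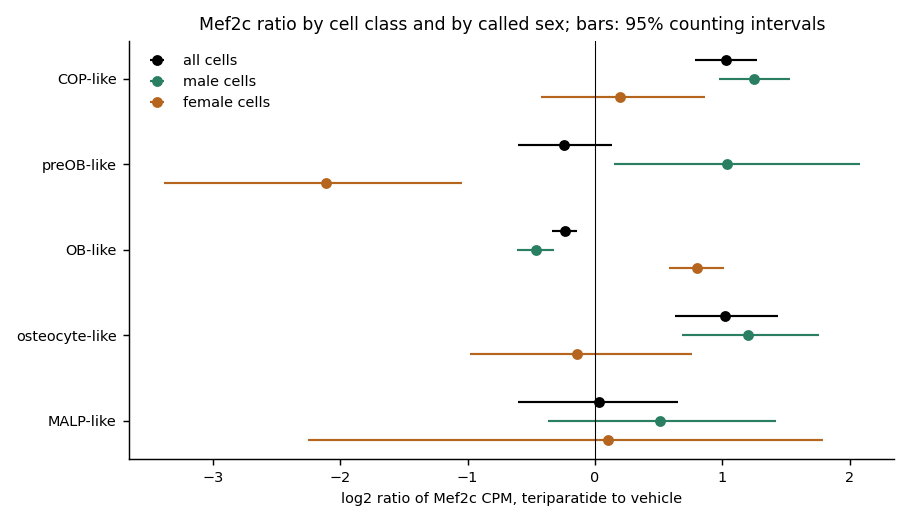
Log2 ratio of Mef2c CPM, teriparatide to vehicle (x axis), in 5 mesenchymal classes (y axis) for all cells (black), cells called male (green) and cells called female (brown), with bars for 95% counting intervals. The male ratio lies above 0 in COP-like (1.25), preOB-like (1.04) and osteocyte-like cells (1.202) and under 0 in OB-like cells (-0.46), and female points rest on few teriparatide cells.

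Osteocyte-like cells also held more Mef2c in the teriparatide library, at a log2 ratio of 1.02 (0.63 to 1.43). Of the UMIs, 67.7% of 62 and 57.7% of 359 lay in 5 cells. Male cells gave 1.202 (0.68 to 1.76), from 756 to 1740.2 CPM, and female cells, 4 in each library, -0.14 (-0.98 to 0.76). In the same class the 5 OB markers summed to 3341 CPM (Bglap2 and Ifitm5 at 0) and 10518 CPM. The 3 osteocyte markers summed to 20181 and 27994.5 CPM, with Dmp1 at 14599 and 16142 CPM, Mepe at 4472 and 10174 CPM and Phex at 1110 and 1678 CPM. OB-like cells themselves held 706 and 599 CPM of Mef2c. The part of these lists was not tested. Of the known MEF2 targets, Sost, the gene of the Wnt antagonist sclerostin, had 0 UMIs in the 16 vehicle cells and 66 UMIs (245 CPM) in the 36 teriparatide cells, at least 7.71-fold higher against a floor of 3 UMIs in the vehicle class. The part of the marker differences, Mepe among them, in the Sost counts was not tested. Jun, another known target, was lower, with 2125 and 1256 CPM. No UMI of Sost was found in COP-like, preOB-like, OB-like or MALP-like cells of either library.

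The rest of the pathway was read from lists of 61 genes around the members. In COP-like cells 53 were compared, with 5 past the fold higher and 4 lower. In OB-like cells it was 2 higher and 7 lower of 42, and in MALP-like cells 4 higher and 9 lower of 46. Against the shares of all genes given above, 9 of 53 was under 25.1%, 9 of 42 was near 19.4%, and 13 of 46 was above 17.2%.

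Upstream of the kinases, the complex of LKB1, STRAD and MO25 that activates them had 4 of 5 genes compared in COP-like cells, with Cab39l, a MO25 gene, higher (46.9 and 77.7 CPM), and 2 of 5 in OB-like cells, with Cab39, the other MO25 gene, higher (33.1 and 51.4 CPM). None of 4 was past the fold in MALP-like cells. Of the receptor, Gs and protein kinase A genes, 7 of 8 were compared in COP-like cells, with 1 higher and 1 lower, and none of 6 was past the fold in OB-like and 1 of 7 was lower in MALP-like cells. The one that was higher was the receptor itself, named here after its values were seen. Pth1r had 339 CPM in the vehicle and 700.03 CPM in the teriparatide COP-like cells, 503 and 515 CPM in OB-like cells, 145 and 149.5 CPM in MALP-like cells, and 391 and 178 CPM in osteocyte-like cells. These values are for whole classes and were not split by cluster, hypertrophic marker or sex. The COP-like cells of the libraries also differed in Col10a1, Ihh and sex, and the part of these in the Pth1r ratio was not tested. Prkaca, a catalytic subunit of protein kinase A, was the lower one in COP-like cells (23.4 and 15.5 CPM).

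The 14-3-3 proteins, which hold phosphorylated HDACs and CRTCs in the cytoplasm, had 1 of 7 lower in COP-like, 0 of 6 past the fold in OB-like and 2 of 6 lower in MALP-like cells. None of the calcineurin and PP2A phosphatases was past the fold in these 3 classes (7, 6 and 6 compared), and of the other kinases of class IIa HDACs only Camk2d and Camk2g in MALP-like cells were, both higher. The other MEF2 factors showed none past the fold, with Mef2a at 70.9 and 56.2 CPM in COP-like and 168 and 177 CPM in OB-like cells.

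Among CREB factors and coactivators 1 of 5 was lower in COP-like cells, 1 of 4 in OB-like and 1 of 4 in MALP-like cells. In COP-like cells it was Crem, which codes for a CREB relative and a feedback repressor of cAMP signalling (20.6 and 9.67 CPM, log2 -1.09, -1.68 to -0.49). The 10 known CREB and CRTC targets, Crem among them, had 2 higher and 1 lower of 9 in COP-like cells, with a median of 0.03 against -0.20 over all genes. They had 1 higher and 3 lower of 6 in OB-like cells (median -0.45 against -0.13) and 1 higher and 3 lower of 6 in MALP-like cells (-0.47 against -0.06). The circadian gene Per1 was higher in all 3 classes, at 20.6 and 43.8 CPM in COP-like, 9.87 and 18.5 CPM in OB-like and 19.4 and 35.9 CPM in MALP-like cells.

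Tnfsf11, the gene of the osteoclast factor RANKL, had 0 UMIs with vehicle and 60 UMIs (7.73 CPM) in the teriparatide COP-like cells, at least 4.62-fold higher. It was 32.5 and 79.7 CPM in preOB-like cells. In MALP-like cells it went from 661 to 362 CPM. Among the immediate early genes on this list, Fos stood at 4337 and 4205 CPM in COP-like cells and at 2484 and 1919 CPM in osteocyte-like cells, neither past the fold. In OB-like cells Fos had 1191 and 498 CPM and Nr4a2 had 102 and 35.9 CPM. In MALP-like cells Fos had 1536 and 742 CPM and Dusp1, a MAP kinase phosphatase, 323 and 169 CPM. Fos had 673 and 274 CPM in preOB-like cells. All these counts are from the day after the last injection and do not describe earlier times. The part of the tissue digestion in the levels of Fos, Nr4a2 and Dusp1 was not tested.

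The 4 known MEF2 targets gave 1 higher of 3 in COP-like cells, 1 lower of 2 in OB-like and 2 lower of 2 in MALP-like cells. The gene in COP-like cells was Col10a1, with 3 UMIs under vehicle and 375 UMIs (48.3 CPM, 43.6 to 53.5) under teriparatide, a log2 ratio of 4.85 (3.29 to 7.14), and 87.7% of the latter lay in 5 cells. Of those UMIs, 286 were in 14 female cells. Jun was the lower gene in OB-like cells (525 and 162 CPM) and one of those in MALP-like cells (1205 and 637 CPM), with Klf2, a flow-responsive factor, at 113 and 42.5 CPM. Jun also had 755 and 193 CPM in preOB-like cells. In COP-like cells Jun had 2629 and 2733 CPM, and in monocyte-like cells it was higher with teriparatide, at 437 and 712 CPM.

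In preOB-like cells 22 of the 61 genes were compared, with 2 higher and 8 lower against 29.8% of all genes past the fold, Ywhah among them (143 and 64.8 CPM), and in osteocyte-like cells 18, with 2 higher and 3 lower against 35.3%, among them Ppp2ca, a PP2A catalytic subunit (391 and 193 CPM). In granulocyte-like cells 2 were higher and 13 lower of 46, against 34.6%. The 4 with the largest ratios there were Per1 (51.4 and 17.6 CPM), Nr4a2 (30.8 and 10.9 CPM), Ppp2r1a (78.8 and 35.7 CPM) and, on the higher side, Mef2d (10.3 and 20.7 CPM, from 3 UMIs in the vehicle). In monocyte-like cells 3 were higher and 7 lower of 41, against 33.0%, led by Crem (91.4 and 37.6 CPM), Ppp3cb (19.6 and 42.8 CPM, from 3 UMIs in the vehicle), Nr4a3 (228 and 105 CPM) and Ywhaq (228 and 136 CPM).

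Genes with the pattern most like each member were sought over 16 points, the 8 classes with at least 15 cells in each of the 2 libraries, by the Pearson correlation of log2(CPM + 10) among 9141 genes. The points share libraries and classes, so the correlations are a description. Mef2c was most like Cryab (0.932), Bmp3 (0.930) and Bambi (0.926), a small heat shock protein and a pair of regulators of BMP signalling. Hdac4 was most like Pfkfb3 (0.941), Id1 (0.926) and Impa1 (0.913), and Hdac5 most like Maml3 (0.918), Macf1 (0.889) and Ypel2 (0.880). Sik1 was most like Dgkz (0.944), Foxn2 (0.927) and Slk (0.915), Sik2 most like Kri1 (0.883), Smndc1 (0.820) and Nfu1 (0.818), and Sik3 most like Senp6 (0.908), Pfdn5 (0.901) and Qser1 (0.896). Crtc2 was most like Myd88 (0.939), Mapre1 (0.936) and Arl5b (0.923), and Crtc3 most like Shoc2 (0.943), Ino80d (0.927) and Phf1 (0.913). Between members the highest value was that of Sik3 with Crtc2 (0.716), Mef2c had 0.629 with Hdac5 and 0.227 with Hdac4, and Hdac4 had 0.0492 with Hdac5. Crtc1 had too few UMIs for this comparison.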

How the data were processed

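Sorted cells were profiled by 10x Genomics 3' libraries, 1 for vehicle and 1 for teriparatide. The deposited values are raw UMI counts per gene and barcode on mm10, which the authors made with Cell Ranger, version 2.1.0 per the labels and 3.1.0 per the file headers. Cells with 200 to 6000 detected genes and at most 10% mitochondrial UMIs were kept, and no doublet caller was run. For each class, the mean of log2(1 + UMIs per 10000) over its markers was divided by its 99th percentile (at least 2.5), and a cell joined the class with the highest value from 0.4 up. Scale and floor were set after the data were seen. Mesenchymal cells with a Ptprc UMI, 2 and 7, were left unassigned. Clusters came from Seurat 5.3.0 in R 4.3.3 (integrated libraries, 20 dimensions, resolution 0.6, 2000 variable genes without members, markers, pathway and sex genes), and 1376 of 1464 gated cells in named clusters kept their class. Levels and intervals were computed in Python 3.11.15 with scipy 1.17.1 and tested on simulated data. Cells with a UMI of any of 4 Y-linked genes and none of Xist were called male, and those with Xist and none of these genes female.

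With 1 library per condition no test was run. The members, lists and markers were chosen with earlier results of these data known. Named genes are the 9 members, in each class the 4 pathway genes with the largest ratio past 1.5-fold on at least 50 UMIs, and the 3 genes most like each member with at least 200 UMIs. Other names were added after their values were seen. A group at 0 was set to a floor of 3 UMIs. Alternatives changed the scaling, mitochondrial limit, sex, clusters, depth per cell, cell weights, UMI minimum, fold and gate. GENCODE vM21 gave the gene positions on GRCm38 and RefSeq the promoters. The list of other class IIa HDACs and their corepressors is counted in the totals and not otherwise reported here.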

Additional observations from a re-analysis of the deposited data

Results flagged for a closer look

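The ratio of Mef2c between the libraries lay on opposite sides of 0, with its counting interval, in several pairs of cell groups. None of these differences was tested, since each condition had 1 library. No share over all genes stands beside them, so they are a description of Mef2c alone. Over all genes compared, the median ratio was -0.20 in COP-like, -0.13 in OB-like and 0.05 in osteocyte-like cells. The log2 ratio in COP-like cells (1.03) exceeded that in OB-like cells (-0.24) by 1.26. The ratio in osteocyte-like cells (1.02) exceeded that in OB-like cells by 1.26 as well. Male cells alone had the same order, with 1.25 in COP-like, 1.202 in osteocyte-like and -0.46 in OB-like cells. In female cells the order was reversed, with 0.20 (-0.42 to 0.86) in COP-like and -0.14 (-0.98 to 0.76) in osteocyte-like cells. Female OB-like cells gave 0.80 (0.58 to 1.01), so those intervals overlapped. The part of sex in the differences over all cells was not tested. Among OB-like cells the male ratio (-0.46) differed from the female ratio (0.80) by -1.26, with 35 male and 58 female vehicle cells and 81 and 6 teriparatide cells. Among preOB-like cells the male ratio (1.04) exceeded the female ratio (-2.11) by 3.15, on 11 and 126 male UMIs and 64 and 8 female UMIs. The female teriparatide values rest on 4 preOB-like, 6 OB-like, 4 osteocyte-like and 25 COP-like cells. The female vehicle values of osteocyte-like and COP-like cells rest on 4 and 9 cells. The male vehicle value of preOB-like cells rests on 6 cells.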

How the results depend on the processing

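The number of members past the fold in COP-like cells, 2 of 8, was 0 in female cells alone, where 1 gene reached the minimum. It was 1 in thinned cells, where 2 reached it, 1 at a fold of 2, and 1 in each of 2 alternatives chosen after seeing the data, a gate floor of 0.5 and the removal of cells with a UMI of Col10a1, Ihh or Panx3. In that last case the gene was Crtc3 (log2 -0.68) in place of Mef2c (0.29) and Crtc2 (-0.56). Setting the median ratio to 0 left 2, but these were Mef2c (1.23) and Hdac5 (0.60). In OB-like cells, 0 became 2 in female cells alone, 2 with at least 20 UMIs and 2 with no minimum. In MALP-like cells, 1 became 0 in thinned cells, where Crtc3 alone reached the minimum, 0 at a fold of 2, 2 with at least 20 UMIs and 2 with no minimum. Hdac5 in MALP-like cells ranged from 0.68 with clusters in place of gates to 1.29 in male cells. The other alternatives left these counts within 1.5 times, and no ratio past the fold in these 3 classes changed sign under any alternative. Of the single ratios, 9 of 18 in female cells left the interval of the full class, against 2 of 19 in male cells. Male cells were 222 and female cells 25 of the 258 teriparatide COP-like cells, so male ratios lie close to the full class by make-up. Female ratios rest on few UMIs, such as 2 and 2 for Crtc1 in COP-like cells. The count of members with the same highest class in both libraries, 4 of 9, ranged up to 6 with a mitochondrial limit of 20%. No share over all genes stands beside this count or those by sex, so no result about the members is read from them. No paired analysis was possible because each condition had 1 library. Depth limits Sik1, Sik2 and Crtc1 most.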
